A study of Mus musculus with 6 samples.

Results

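Orphan and adhesion G protein-coupled receptors were followed in mouse cortex, in RNA precipitated with tagged ribosomes and in whole cortex RNA left unbound. The members were all probe sets of the array whose only gene symbol in the platform annotation begins with Gpr and a digit, or with Adgr and a letter. They were 134 probe sets for 83 genes, out of 45101 probe sets on the array and 18193 genes with a symbol of their own. Of the 83 genes, 22 were adhesion receptors (Adgr, 41 probe sets) and 61 carried a Gpr symbol (93 probe sets). A gene was tested if a probe set reached a mean intensity of 50 in at least 1 group, and 50 of the 83 did so, 14 Adgr genes and 36 Gpr genes. The Gpr symbols are those of the array's annotation, and some name membrane proteins that are not receptors of the classical kind.

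The TRAP group held 3 samples from cortex of the line ES691, in which S100a10 regulatory sequence on a bacterial artificial chromosome drives the tag. Translating ribosome affinity purification (TRAP) pulls down the tagged ribosomes with the mRNA they carry. The unbound group held 3 samples of the RNA left in whole cortex lysates of the same line after precipitation, which the titles call input. All animals were untreated and came from an FVB background crossed for 3 to 5 generations to C57BL/6, and neither their age nor their number is given. The labels call the samples biological replicates and the series text calls the TRAP replicates independent, but with no word on separate animals the p-values cover sample-to-sample spread alone, part of which may be technical. The series text states that the S100a10 construct also marks some cells that are not neurons and recommends a published probe set list, which was not used here. In bulk RNA of this kind, fewer cells of a type and less RNA per cell cannot be told apart.

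G protein-coupled receptors cross the membrane in a bundle of helices and pass a signal to heterotrimeric G proteins, which change cyclic AMP, calcium or ion channel activity. Adhesion receptors carry a long outer part that binds proteins on other cells or in the matrix and that many of them cleave from the helical part as they fold. Orphan receptors are those for which no agreed ligand exists, and several of them signal without one. In brain, members of both classes mark cell types, take part in synapse formation, myelination and vessel growth, and include receptors of microglia and glial precursors.

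Median intensity over all probe sets ranged from 31.4 to 31.8 on the TRAP arrays and from 42.4 to 43.1 on the unbound arrays, and precision is limited by having 3 arrays in each group. S100a10, the driver gene, measured 14362, 15087 and 12934 in TRAP RNA, against 2950.4, 2174 and 2165 in unbound RNA, a log2 fold change of 2.55 (SE 0.15, adjusted p = 8.3e-05). Of 8 tested markers of glutamatergic pyramidal neurons, the class named in the series title, 3 were called higher and 3 lower in TRAP RNA (summed intensity 15416 to 15841 on TRAP arrays and 14350.3 to 16719 on unbound arrays). Of 10 markers of GABAergic interneurons 8 were lower (summed intensity 14839 to 18761 on TRAP arrays and 36163 to 37449.7 on unbound arrays). Adjusted p-values are from limma over all 12070 genes tested, a gene being represented by its probe set of highest mean. Differences are log2 TRAP minus log2 unbound. The normalisation gave some arrays of a group exactly the same value, in 28 of the 50 tested receptor genes and in all 3 arrays of a group for 10 of them, so an SD at or near 0 does not measure precision. Each such gene's p-value rests on that limited spread.

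Most called receptor genes were lower in TRAP RNA. Of the 50 tested, 30 were called lower and 6 higher at an adjusted p below 0.05, and 14 were not called. Among all genes tested, 45.7% were called lower and 23.3% higher, 69% in either direction. At least 2-fold changes were called lower in 13 receptor genes and higher in 3, where 13.3% and 7.29% of all genes were called at that size. The median log2 fold change was -0.48 for the 50 receptor genes and -0.21 for all genes. The adhesion genes had 5 lower and 1 higher of 14 (median -0.34), and the other Gpr genes 25 lower and 5 higher of 36 (median -0.56). The arrays of the groups did not overlap in 40 of the 50 genes, 32 with TRAP below and 8 with TRAP above; this was so for 75.5% of all genes, 49.6% with TRAP below and 25.9% with TRAP above. The share of lower calls moved with the scaling, to 24 lower and 9 higher after centring arrays on the tested genes and to 18 lower and 14 higher after centring on all probe sets. Over all genes tested, 33.2% were called lower and 34% higher with the first scaling, and 22.3% and 47.3% with the other. The all-gene median difference became 0.0054 with the first scaling and 0.23 with the other. Of the 16 genes called at least 2-fold, Adgra2, Gpr182, Gpr34 and Gpr101 were under 50 on average in 1 group, so the size of their differences rests on values near background. The other 12 kept their direction and call in the settings run for them, apart from a test against a 2-fold change, though repeated values limit what leaving out an array can show.

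**Figure D1:**
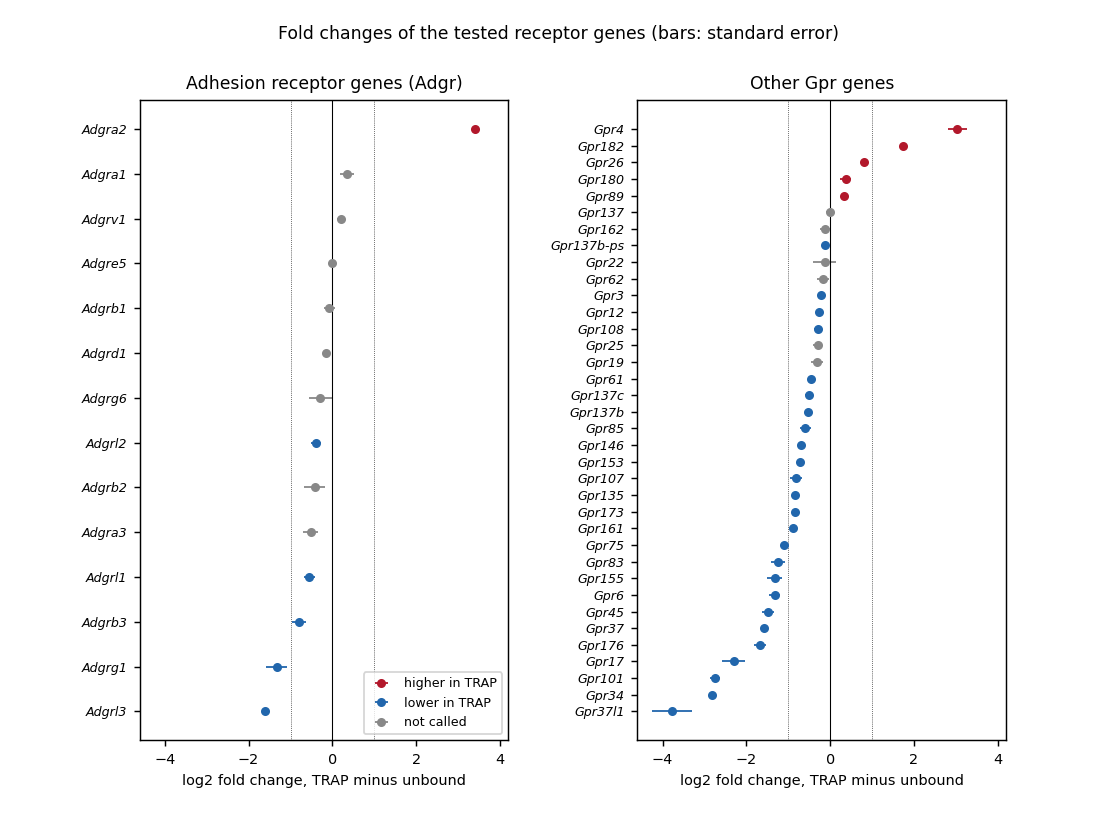
Log2 fold change (TRAP minus unbound, x axis) of the 14 adhesion receptor genes on the left and the 36 other Gpr genes on the right, with the standard error as bars and dotted lines at a 2-fold change. Adgra2, Gpr4 and Gpr182 lie right of the right-hand dotted line, and 13 genes lie left of the left-hand one, with Gpr37l1 lowest at -3.77.

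Adgra2, Gpr4 and Gpr182, the receptor genes called at least 2-fold higher in TRAP RNA, are each known from blood vessels. Adgra2, also called Gpr124, encodes the adhesion receptor that works with Reck in Wnt7 signalling of brain endothelium, and it measured 144, 146 and 146 in TRAP RNA, against 13.3, 13.7 and 14.0 in unbound RNA. All 3 TRAP arrays lay above 100 and all 3 unbound arrays near background, a log2 fold change of 3.41 (SE 0.03, adjusted p = 4.8e-07), or 10.6-fold. Setting all values below 50 to 50, a floor, made the difference 2.91-fold. Adgra2 had 1 probe set, of the _s_at type, so it could not be tested where such probe sets were left out. Gpr4, a receptor that senses protons and is found in endothelial cells, measured 510.4, 588 and 329 in TRAP RNA, against 55.1, 59.8 and 55.1 in unbound RNA. Its lowest TRAP array stood well above its highest unbound array, a log2 fold change of 3.03 (SE 0.23, adjusted p = 2.2e-04), or 8.16-fold. Gpr182, an endothelial receptor that takes up chemokines, measured 89.6, 93.4 and 93.4 in TRAP RNA, against 27.0, 27.0 and 28.6 in unbound RNA. The groups were apart, with a log2 fold change of 1.74 (SE 0.04, adjusted p = 4.2e-06), or 3.35-fold (1.84-fold with a floor of 50).

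Markers of cells of the vessel wall and of the coverings of the brain were measured on the same arrays. Of 9 endothelial markers on the array, Cdh5, Flt1, Kdr, Pecam1 and Tek were under 50 in both groups, and of the 4 tested, 1 was higher and 2 were lower (summed intensity 393 to 444 on TRAP arrays and 459.8 to 565 on unbound arrays). Adgrl4, an adhesion receptor of endothelium, was likewise under 50, at 6.03, 6.23 and 6.36 in TRAP RNA, against 21.8, 21.8 and 21.8 in unbound RNA on the brighter of its probe sets. Of 8 markers of pericytes and smooth muscle 6 were tested, with 5 higher and 1 lower (summed intensity 5426 to 6782 on TRAP arrays and 1941 to 2287 on unbound arrays). Of 15 meningeal fibroblast markers 14 were tested and 13 were higher (summed intensity 44512 to 49776 on TRAP arrays and 2715 to 3621 on unbound arrays). No listed marker was at 0 on any array, a value the normalisation does not give. The part of these cells in the values of Adgra2, Gpr4 and Gpr182 was not tested.

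The other genes called higher changed by less than 2-fold. Gpr26, a brain receptor that raises cyclic AMP without a known ligand, measured 271, 277 and 301 in TRAP RNA, against 155, 156 and 177 in unbound RNA, a log2 fold change of 0.80 (SE 0.07, adjusted p = 4.4e-04). The groups did not overlap, but a dimmer Gpr26 probe set gave 119, 75.9 and 141 in TRAP RNA, against 115, 50.0 and 176 in unbound RNA, which overlap (log2 0.11), and the mean of both probe sets was not called (adjusted p = 0.21). Gpr89, the gene of a Golgi channel protein that regulates pH, measured 493, 493 and 493 in TRAP RNA, against 367, 399.6 and 410.0 in unbound RNA, a log2 fold change of 0.33 (SE 0.05, adjusted p = 0.0025). Gpr180, a membrane protein linked to growth factor signalling, measured 741, 924 and 1004 in TRAP RNA, against 651, 685 and 719 in unbound RNA, a log2 fold change of 0.37 (SE 0.12, adjusted p = 0.046). Its call was lost when TRAP 2, TRAP 3, unbound 1, unbound 2 or unbound 3 was left out, with adjusted p between 0.086 and 0.13.

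**Figure D2:**
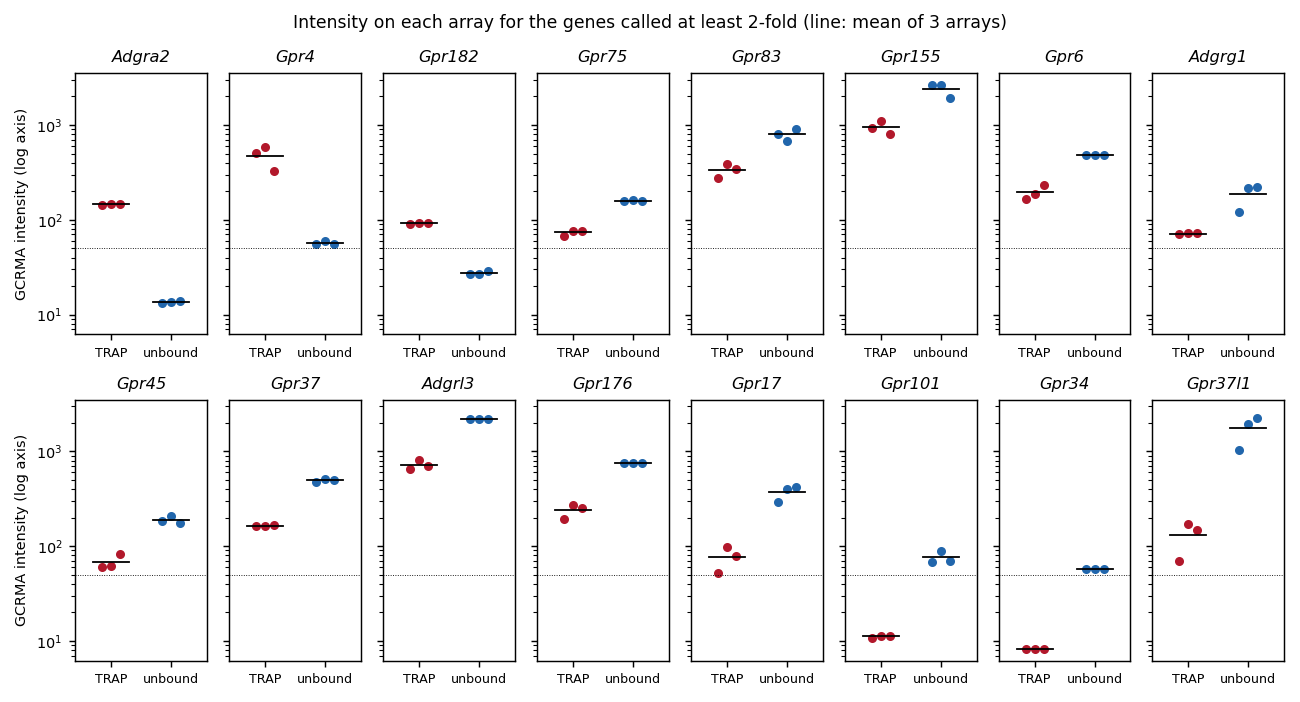
Intensity on each array (y axis, log scale) for the 16 receptor genes called at least 2-fold, with TRAP arrays on the left and unbound arrays on the right of each panel, the mean of 3 arrays as a line and the level of 50 dotted. In every panel the groups are apart, and unbound values of Adgra2 and Gpr182 and TRAP values of Gpr101 and Gpr34 lie under the dotted line.

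Latrophilins, the adhesion receptors that bind teneurins and FLRT proteins across the synapse, were lower in all 3 tested members, though centring on all probe sets turned Adgrl2 to a log2 value of 0.035. Among all genes tested, 45.7% were called lower. Adgrl4 was under 50 in both groups. Adgrl3 measured 657, 805 and 705 in TRAP RNA, against 2192, 2192 and 2192 in unbound RNA. Every TRAP array was below 900 and every unbound array at the same, far higher value, a log2 fold change of -1.61 (SE 0.08, adjusted p = 5.1e-05), or 3.04-fold. This probe set is of the _x_at type, which can bind related transcripts, but all 5 Adgrl3 probe sets above the level minimum were called lower, with log2 fold changes from -2.06 to -1.23. The unmarked probe set with the largest difference measured 260.5, 260.5 and 260.5 in TRAP RNA, against 978, 1143 and 1143 in unbound RNA. Adgrl1, the receptor for the toxin of black widow spiders, measured 3043, 3467 and 4029 in TRAP RNA, against 4665, 5163 and 5561 in unbound RNA, a log2 fold change of -0.55 (SE 0.13, adjusted p = 0.012). A dimmer Adgrl1 probe set gave 570.1, 758 and 765 in TRAP RNA, against 737, 820.0 and 897 in unbound RNA, where the groups overlap. Adgrl2 measured 999.8, 1252 and 1187 in TRAP RNA, against 1393, 1659 and 1471 in unbound RNA, a log2 fold change of -0.40 (SE 0.11, adjusted p = 0.026), and its other probe set above the minimum was lower as well (log2 -0.72). The Adgrl2 call was lost without TRAP replicate 3 (adjusted p = 0.057), unbound replicate 2 (0.074) or unbound replicate 3 (0.067). After centring on the tested genes Adgrl3 kept its call at log2 -1.40, while Adgrl1 (log2 -0.34, adjusted p = 0.06) and Adgrl2 (log2 -0.19, adjusted p = 0.22) lost theirs.

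The ligand genes of the latrophilins were mostly lower too. Of 7 teneurin and FLRT genes tested, 6 were called lower, 2 of them at least 2-fold, and Flrt1 was not called (log2 -0.082). The list median was -0.95, and 45.7% of all genes were called lower. Centring left 5 of these calls when done on the tested genes and 3 when done on all probe sets, with 0 genes higher. Those centrings called 33.2% and 22.3% of all genes lower. Tenm3 measured 691, 955 and 1105 in TRAP RNA, against 1979, 2350.2 and 2322 in unbound RNA, a log2 fold change of -1.30 (SE 0.19, adjusted p = 0.0027). Tenm4 measured 279, 398 and 407 in TRAP RNA, against 638, 829 and 889.7 in unbound RNA, a log2 fold change of -1.13 (SE 0.21, adjusted p = 0.0056). In both teneurin genes the highest TRAP array lay below the lowest unbound array. Tenm1 (log2 -0.95, adjusted p = 0.0096), Tenm2 (log2 -0.99, adjusted p = 0.046), Flrt2 (log2 -0.71, adjusted p = 1.6e-04) and Flrt3 (log2 -0.66, adjusted p = 0.0054) were called with smaller differences. Of 4 tested genes for neurexins, a contactin and dystroglycan, which also bind at such contacts, Nrxn3 (log2 -0.76) and Cntn6 (log2 -0.90) were lower and Nrxn2 and Dag1 were not called. These 2 lower genes of 4 are near the 45.7% of all genes called lower.

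The Adgrb receptors, which bind complement C1q-like proteins or phosphatidylserine and signal to the actin cytoskeleton, included 1 called gene of 3. Of all genes tested, 69% were called in either direction and 45.7% lower. Adgrb3, the receptor for C1q-like proteins at synapses, measured 2175, 2913 and 3096 in TRAP RNA, against 4191, 4592 and 5421 in unbound RNA, a log2 fold change of -0.80 (SE 0.17, adjusted p = 0.0098). Its groups do not overlap, and the call was kept after centring on the tested genes (log2 -0.59, adjusted p = 0.02) and lost after centring on all probe sets (log2 -0.37, adjusted p = 0.096). Adgrb1, through which cells engulf apoptotic neighbours, measured 903, 1238 and 1220.2 in TRAP RNA, against 1152, 1177 and 1177 in unbound RNA, with overlapping groups (log2 -0.076, adjusted p = 0.64). Without TRAP replicate 1 its log2 value was 0.073 (adjusted p = 0.071). Adgrb2 measured 838, 1227 and 1124 in TRAP RNA, against 1058, 1701 and 1566 in unbound RNA and overlapped (log2 -0.43, adjusted p = 0.17). With the replicate number as a block it was called lower (adjusted p = 0.0053), as it was without unbound replicate 1 (log2 -0.64, adjusted p = 0.048). Among 15 tested genes for C1q-like proteins, Nogo receptors and effectors of these receptors, 11 were lower and 0 higher, beside 45.7% and 23.3% of all genes. Their median was -0.49. After centring on the tested genes 7 of them were lower and 2 higher, beside 33.2% and 34% of all genes. C1ql3, a ligand of Adgrb3, measured 2300.5, 3261 and 3759.9 in TRAP RNA, against 6401, 7386 and 7950.0 in unbound RNA, a log2 fold change of -1.25 (SE 0.21, adjusted p = 0.0039). Baiap3, named for its binding to Adgrb1, was 2.26-fold lower (adjusted p = 2.1e-04). C1ql2 was 2.19-fold lower, and with a floor of 50 on its values it was not called (log2 -0.15).

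Adgrg1, also called Gpr56, was the other adhesion gene called at least 2-fold lower. Its product binds collagen III and transglutaminase 2 and is known from cortical development, glial precursors and microglia. It measured 70.8, 71.9 and 71.9 in TRAP RNA, against 121, 217 and 223 in unbound RNA, a log2 fold change of -1.33 (SE 0.26, adjusted p = 0.0069), or 2.52-fold. This is a probe set of the _x_at type, and the gene's other probe set, of the _a_at type, gave 65.3, 65.3 and 66.8 in TRAP RNA, against 103, 159 and 159 in unbound RNA, which was also called lower (log2 -1.07). Its ligand genes Col3a1 and Tgm2 were higher in TRAP RNA. Col3a1 measured 204, 393 and 173 in TRAP RNA, against 17.3, 17.3 and 17.0 in unbound RNA (14.0-fold higher, or 4.80-fold with a floor of 50, adjusted p = 3.4e-04). Tgm2 measured 1283, 1521 and 1240.3 in TRAP RNA, against 259, 232 and 319.5 in unbound RNA (5.02-fold higher, adjusted p = 1.2e-04). The meningeal fibroblast markers given with Adgra2 were higher in 13 of 14, and their part in these values was not tested. Col4a1, a basement membrane collagen bound by Adgrg6, measured 60.6, 61.7 and 54.2 in TRAP RNA, against 177, 177 and 169.7 in unbound RNA (2.97-fold lower, adjusted p = 2.1e-05). The mean of the Col4a1 probe sets above the minimum was also called lower, by less (log2 -0.68 against -1.57 for the brightest, adjusted p = 5.6e-05). Adgrg6 itself, needed for myelination by Schwann cells, measured 37.3, 44.8 and 59.0 in TRAP RNA, against 67.1, 66.4 and 40.2 in unbound RNA, with overlapping groups and no call (log2 -0.29, adjusted p = 0.39). Its other probe set gave 31.0, 37.6 and 31.0 in TRAP RNA, against 65.0, 73.0 and 65.0 in unbound RNA without overlap and was called lower (log2 -1.03). That probe set stands for Adgrg6 without TRAP replicate 3, where the gene was called (log2 -0.98, adjusted p = 0.0035), and the mean of both probe sets was called lower too (log2 -0.66, adjusted p = 0.012). Of the 10 ligand and partner genes tested for these receptors, 3 were higher, 2 lower and 5 not called, beside 23.3% higher and 45.7% lower of all genes.

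The remaining adhesion genes were not called on the deposited scale. Adgra1, a receptor of brain with no known ligand, measured 1039, 1048 and 1406 in TRAP RNA, against 799, 886 and 1065 in unbound RNA, and its 3 probe sets were higher in TRAP RNA on average by 0.34 to 0.76 on the log2 scale with no call (adjusted p = 0.13). With the replicate block it was called higher (adjusted p = 0.0098), which made 2 adhesion genes higher, and likewise with each scaling (log2 0.54 to 0.77, adjusted p from 0.007 to 0.027). Adgra3 measured 116, 159 and 182 in TRAP RNA, against 193, 221 and 233 in unbound RNA without overlap (log2 -0.52, adjusted p = 0.055), and it was called lower with the replicate block (adjusted p = 0.017) and when TRAP replicate 3 was left out (0.035). Adgrv1, the receptor mutated in a form of Usher syndrome, measured 73.4, 94.0 and 83.8 in TRAP RNA, against 72.9, 72.9 and 72.9 in unbound RNA (log2 0.19, adjusted p = 0.12), and it was called higher without TRAP replicate 1 (adjusted p = 0.018) and with each of the 3 scalings (log2 0.40 to 0.63, adjusted p from 0.0022 to 0.01). Adgrd1 measured 58.0, 64.1 and 58.0 in TRAP RNA, against 68.1, 63.7 and 68.4 in unbound RNA (log2 -0.15, adjusted p = 0.061), and it was called lower without TRAP replicate 2 (adjusted p = 0.02). After centring on all probe sets Adgrd1 was called higher instead (log2 0.28, adjusted p = 0.01), as with quantile normalisation (log2 0.18, adjusted p = 0.04997). Adgre5, a leukocyte receptor for CD55, read 54.4 on all 6 arrays, just above the level minimum, while Cd55 measured 131, 131 and 131 in TRAP RNA, against 77.9, 70.4 and 70.4 in unbound RNA (1.80-fold higher, adjusted p = 9.1e-05). Each scaling called Adgre5 higher, with log2 values of 0.21, 0.43 and 0.36 for centring on the tested genes, on all probe sets and quantile normalisation (adjusted p = 0.013, 2.4e-04 and 0.001). Adgre1, the F4/80 antigen of macrophages, lay just below the minimum at 47.7, 50.8 and 50.5 in TRAP RNA, against 49.4, 49.4 and 49.4 in unbound RNA. Beside Adgra2, its partner gene Reck measured 411, 495 and 462 in TRAP RNA, against 405, 339 and 358 in unbound RNA (1.24-fold higher, adjusted p = 0.039, or 0.10 with the replicate block). The Reck call was also lost when TRAP 2 or 3 or unbound 2 or 3 was left out (adjusted p between 0.10 and 0.11). Wnt7a, the ligand gene, measured 22.0, 44.2 and 45.6 in TRAP RNA, against 196, 237 and 247 in unbound RNA (6.37-fold lower, or 4.51-fold with a floor of 50, adjusted p = 0.0012), and its call was lost when both group means had to reach 50, where another probe set stood for it (log2 -0.50, adjusted p = 0.051). Wnt7b was not called (log2 -0.070). Of the 7 tested partner genes of Adgra2 in Wnt7 signalling, 2 were higher, 4 lower and 1 not called. Of all genes, 23.3% were called higher and 45.7% lower. After centring on all probe sets 3 of these partner genes were higher and 1 lower, beside 47.3% and 22.3% of all genes.

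Among the Gpr genes the largest difference was that of Gpr37l1, an astrocyte receptor of the endothelin-like pair for which prosaposin has been proposed as ligand. It measured 70.3, 169.9 and 149 in TRAP RNA, against 1033, 1940.3 and 2272 in unbound RNA. Although values varied within both groups, the highest TRAP array was far below the lowest unbound array, a log2 fold change of -3.77 (SE 0.47, adjusted p = 0.0014), or 13.7-fold. Gpr37, its relative in oligodendrocytes, measured 163, 163 and 168 in TRAP RNA, against 478, 509 and 499 in unbound RNA, a log2 fold change of -1.59 (SE 0.04, adjusted p = 4.3e-06), or 3.01-fold. Psap, the prosaposin gene, overlapped between groups at 9241, 10841 and 11069 in TRAP RNA, against 9917, 12148 and 15402 in unbound RNA (log2 -0.25, adjusted p = 0.27). Gpr17, a receptor that times the maturation of oligodendrocyte precursors, measured 52.3, 98.2 and 79.1 in TRAP RNA, against 289, 402 and 424 in unbound RNA, a log2 fold change of -2.31 (SE 0.28, adjusted p = 0.0013), or 4.95-fold. Gpr62, found in myelinating cells, overlapped between groups at 354, 447 and 485 in TRAP RNA, against 444, 470.3 and 520.4 in unbound RNA (log2 -0.17, adjusted p = 0.32). Markers of these cells moved on the same arrays. Of 10 tested oligodendrocyte markers 9 were lower (summed intensity 9038 to 14331 on TRAP arrays and 52706 to 58070.0 on unbound arrays), and of 6 precursor markers 5 (summed intensity 1085 to 1521 on TRAP arrays and 7284 to 8257 on unbound arrays). Of 10 astrocyte markers 6 were lower and 2 higher (summed intensity 14859 to 18376 on TRAP arrays and 16441 to 25562 on unbound arrays). Their part in the values of Gpr37l1, Gpr37 and Gpr17 was not tested.

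Gpr34, a microglial receptor for lysophosphatidylserine, was the only 1 of 10 receptor genes of immune cells on the array to pass the level minimum. It measured 8.23, 8.23 and 8.23 in TRAP RNA, against 57.9, 57.9 and 57.9 in unbound RNA. With every array of a group at the same value the fit gave a log2 fold change of -2.81 (SE 0.02, adjusted p = 4.7e-07), or 7.03-fold, and 1.16-fold with a floor of 50. The other 9 genes, Gpr15, Gpr18, Gpr35, Gpr65, Gpr84, Gpr132, Gpr171, Gpr174 and Gpr183, were under 50 in both groups. Of 10 tested microglial markers 9 were lower (summed intensity 925 to 1689.8 on TRAP arrays and 2930.0 to 4286 on unbound arrays), and their part in the Gpr34 value was not tested.

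The promoters of 4 strongly changed receptor genes are shown, since they let the start regions of a gene higher in TRAP RNA and of genes lower in it be read side by side. They are among the genes still at least 3-fold different with a floor of 50 for which RefSeq (GRCm38.p6) lists a single start here. The choice was made after the values were seen, and the windows do not cover every gene that met the fold rule. With that floor Gpr17 was 4.95-fold lower and Adgrl3 3.04-fold lower, and neither is shown. Of the 50 tested receptor genes, 38 matched a promoter in that table and 29 had a single start. Each sequence runs 5′ to 3′ on the gene's strand, from 250 bases before to 50 bases after the annotated start. Capitals mark the TATA box (TATAAA), the GC box (GGGCGG), the CCAAT box (CCAAT) and the half-site of the cAMP response element (TGACG), searched on both strands.
Gpr4, chr7:19212288-19212587, plus strand: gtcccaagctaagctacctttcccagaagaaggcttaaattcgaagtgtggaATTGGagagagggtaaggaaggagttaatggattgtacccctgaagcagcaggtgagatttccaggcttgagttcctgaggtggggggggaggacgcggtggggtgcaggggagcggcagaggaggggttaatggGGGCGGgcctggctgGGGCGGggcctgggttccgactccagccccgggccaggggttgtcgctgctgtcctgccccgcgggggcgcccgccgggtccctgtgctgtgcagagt
Gpr37, chr6:25689931-25690230, minus strand: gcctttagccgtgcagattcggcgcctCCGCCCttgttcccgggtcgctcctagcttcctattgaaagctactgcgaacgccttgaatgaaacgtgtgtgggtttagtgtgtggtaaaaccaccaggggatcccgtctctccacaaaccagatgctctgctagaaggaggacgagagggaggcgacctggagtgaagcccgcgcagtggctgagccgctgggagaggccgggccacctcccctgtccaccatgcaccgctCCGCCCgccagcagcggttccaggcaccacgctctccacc
Gpr176, chr2:118373370-118373669, minus strand: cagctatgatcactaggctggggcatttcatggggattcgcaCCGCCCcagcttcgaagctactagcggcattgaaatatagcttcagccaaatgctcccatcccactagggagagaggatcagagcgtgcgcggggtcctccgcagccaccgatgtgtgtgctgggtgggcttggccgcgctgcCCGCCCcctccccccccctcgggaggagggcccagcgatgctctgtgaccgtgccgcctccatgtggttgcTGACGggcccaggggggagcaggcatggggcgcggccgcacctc
Gpr37l1, chr1:135167632-135167931, minus strand: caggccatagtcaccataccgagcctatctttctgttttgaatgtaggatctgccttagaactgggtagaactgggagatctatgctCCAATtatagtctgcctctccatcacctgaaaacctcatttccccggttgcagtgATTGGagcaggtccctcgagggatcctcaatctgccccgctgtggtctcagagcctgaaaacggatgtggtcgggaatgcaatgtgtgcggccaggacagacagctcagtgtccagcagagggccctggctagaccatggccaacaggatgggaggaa
The Gpr4 window held 2 GC boxes and 1 CCAAT box, the Gpr37 window 2 GC boxes, the Gpr176 window 2 GC boxes and 1 TGACG, and the Gpr37l1 window 2 CCAAT boxes. Of 32851 promoters of that length, 35.7% held a GC box, 37.4% a CCAAT box, 20.8% TGACG and 13.6% a TATA box. G and C made up 64.0% of the Gpr4 window, 62.7% for Gpr37, 66.3% for Gpr176 and 53.7% for Gpr37l1, where the median of all promoters was 52.7%. CG occurred 14 times at Gpr4, 21 times at Gpr37, 20 times at Gpr176 and 7 times at Gpr37l1, against a median of 7. These matches describe letters in the windows.

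Receptors that couple to Gs without a ligand, Gpr3, Gpr6 and Gpr12, were called lower in 3 of 3, where 45.7% of all genes were. However, Gpr3 turned to log2 0.078 with quantile normalisation. Centring on all probe sets called Gpr3 and Gpr12 higher, at 0.21 (adjusted p = 0.0047) and 0.16 (adjusted p = 0.033), where 47.3% of all genes were called higher. Gpr6, a receptor of striatal neurons of the indirect pathway, measured 167, 188 and 232 in TRAP RNA, against 487, 487 and 487 in unbound RNA. The unbound arrays shared a single value, and all TRAP arrays were below it, a log2 fold change of -1.33 (SE 0.13, adjusted p = 5.0e-04), or 2.51-fold. Gpr149, also listed for striatum, was under 50 in both groups. Of 7 tested markers of striatal projection neurons 6 were lower (summed intensity 3655 to 4355 on TRAP arrays and 10652 to 11264 on unbound arrays), and their part in the Gpr6 value was not tested. Gpr3 measured 79.9, 79.9 and 79.9 in TRAP RNA, against 93.6, 93.6 and 92.2 in unbound RNA (log2 -0.22, adjusted p = 9.2e-04) and Gpr12 438, 453 and 476 in TRAP RNA, against 543, 561 and 543 in unbound RNA (log2 -0.27, adjusted p = 0.0032). Both small differences lost their calls after centring on the tested genes (log2 -0.011 for Gpr3 and -0.059 for Gpr12). The other 2 Gpr12 probe sets above the minimum were not called (log2 -0.18 and -0.067). Without probe sets with repeated values Gpr12 was not called either (log2 -0.18, adjusted p = 0.17).

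A further 6 Gpr genes were at least 2-fold lower in TRAP RNA. Gpr101, a Gs-coupled receptor of hypothalamus whose human gene is duplicated in a form of gigantism, measured 10.7, 11.4 and 11.4 in TRAP RNA, against 68.5, 89.5 and 69.5 in unbound RNA. All TRAP arrays were near background, a log2 fold change of -2.76 (SE 0.12, adjusted p = 3.1e-05), or 6.76-fold (1.51-fold with a floor of 50). Gpr176, which sets the pace of the circadian clock in the suprachiasmatic nucleus, measured 191, 274 and 253 in TRAP RNA, against 751, 751 and 751 in unbound RNA, a log2 fold change of -1.67 (SE 0.14, adjusted p = 3.4e-04). Gpr45, an orphan receptor of brain, measured 60.1, 62.0 and 83.2 in TRAP RNA, against 185, 209 and 176 in unbound RNA, a log2 fold change of -1.48 (SE 0.15, adjusted p = 6.5e-04). Gpr155, a cholesterol sensor of the lysosome, measured 939.7, 1113 and 807 in TRAP RNA, against 2627, 2637 and 1923 in unbound RNA, a log2 fold change of -1.33 (SE 0.18, adjusted p = 0.0019). In these 4 called genes the TRAP arrays lay below the unbound ones without overlap, as in 49.6% of all genes tested. Gpr83, a receptor for which the peptide PEN from Pcsk1n has been proposed as ligand, measured 279, 386 and 345 in TRAP RNA, against 799, 677 and 909.6 in unbound RNA, a log2 fold change of -1.24 (SE 0.17, adjusted p = 0.0017), and its other probe set gave a log2 value of -1.07. Pcsk1n was lower as well (log2 -0.65, adjusted p = 0.0067). Gpr75 measured 67.5, 76.9 and 76.9 in TRAP RNA, against 159, 161 and 157 in unbound RNA, a log2 fold change of -1.11 (SE 0.06, adjusted p = 7.6e-05).

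The SREB receptors, a family conserved across vertebrate brains, were called lower in both tested members, where 45.7% of all genes were. Gpr85 measured 2042, 2730.0 and 2653 in TRAP RNA, against 3530.3, 3721 and 3844 in unbound RNA, a log2 fold change of -0.59 (SE 0.13, adjusted p = 0.0096), and its 3 probe sets above the minimum were all called lower, with log2 values from -0.59 to -0.41. Gpr173 measured 115, 118 and 118 in TRAP RNA, against 192, 229 and 209 in unbound RNA, a log2 fold change of -0.84 (SE 0.07, adjusted p = 3.2e-04). Both calls were kept after centring on the tested genes (log2 -0.38 and -0.63), while Gpr85 lost its call after centring on all probe sets (log2 -0.16). Those centrings called 33.2% and 22.3% of all genes lower. Gpr161, a receptor of primary cilia that holds back Hedgehog signalling, measured 65.1, 59.0 and 67.5 in TRAP RNA, against 111, 121 and 122 in unbound RNA, a log2 fold change of -0.89 (SE 0.07, adjusted p = 2.5e-04). Gpr135 (log2 -0.83), Gpr153 (log2 -0.73), Gpr146 (log2 -0.69) and Gpr61 (log2 -0.45) were also called lower, with adjusted p from 1.8e-05 to 7.7e-04. The Gpr61 call was lost after centring on all probe sets (log2 -0.022, adjusted p = 0.76) and with quantile normalisation (log2 -0.20, adjusted p = 0.055). In these 7 called genes the TRAP arrays lay below the unbound ones without overlap, as in 49.6% of all genes tested.

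Of 9 tested genes that carry a Gpr symbol but encode other kinds of membrane protein, 6 were lower and 2 higher, counts that became 1 and 4 after centring on all probe sets. Of all genes, 45.7% were called lower and 23.3% higher, or 22.3% and 47.3% after that centring. Gpr155, described above, was the only member of that list at 2-fold. Gpr107, a protein of the trans-Golgi network, measured 220.2, 275 and 241 in TRAP RNA, against 367, 514 and 421 in unbound RNA, a log2 fold change of -0.81 (SE 0.15, adjusted p = 0.0061), but a dimmer probe set gave 80.8, 80.8 and 80.8 in TRAP RNA, against 44.6, 80.2 and 67.1 in unbound RNA and was not called (log2 0.38). The mean of both Gpr107 probe sets was not called (adjusted p = 0.31). Gpr108 measured 133, 133 and 148 in TRAP RNA, against 150.0, 179 and 179 in unbound RNA, a log2 fold change of -0.29 (SE 0.09, adjusted p = 0.035), and the call was lost when TRAP 1 or 2 or unbound 2 or 3 was left out (adjusted p between 0.10 and 0.11) and with each scaling. Gpr137b, a lysosomal protein, measured 444, 501 and 451 in TRAP RNA, against 675, 675 and 675 in unbound RNA, and its pseudogene Gpr137b-ps 803, 836 and 836 in TRAP RNA, against 922, 889 and 889 in unbound RNA. Probe sets of this pair can bind transcripts of either gene, so whether and which of them changed (log2 -0.54 and -0.13) is uncertain. A dimmer Gpr137b probe set was not called (log2 0.12). The brightest probe set naming both genes overlapped between groups, at 1276, 1396 and 1357 in TRAP RNA, against 1332, 1328 and 1332 in unbound RNA. Dimmer ones naming both averaged 68.3, 51.6 and 66.3 in TRAP RNA, against 88.3, 70.8 and 68.5 in unbound RNA. The Gpr137b-ps call was lost with the replicate block (adjusted p = 0.068), its sign turned after centring on the tested genes (log2 0.085), and centring on all probe sets called it higher (log2 0.31, adjusted p = 0.0015). Gpr137c measured 39.6, 39.6 and 34.3 in TRAP RNA, against 56.3, 56.3 and 49.4 in unbound RNA, and with a floor of 50 it was not called (adjusted p = 0.12). Gpr137 overlapped between groups (log2 -0.012, adjusted p = 0.91), and its sign turned without TRAP replicate 1 (log2 0.038) or unbound replicate 3 (log2 0.049). Centring on all probe sets called Gpr137 higher (log2 0.42, adjusted p = 0.0089).

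Gpr19, Gpr22, Gpr25 and Gpr162 were not called. Gpr22 measured 809, 661 and 1289.6 in TRAP RNA, against 921, 894 and 1110.0 in unbound RNA (log2 -0.14, adjusted p = 0.68), with TRAP replicate 3 highest and an opposite sign without TRAP replicate 2 (log2 0.074). Its other probe set gave 245, 264 and 329 in TRAP RNA, against 537, 574 and 598 in unbound RNA without overlap and was called lower (log2 -1.04). Gpr19 likewise had a brighter probe set without a call (log2 -0.32) and a dimmer one called lower (log2 -1.19). The mean of a gene's probe sets above the minimum was called lower for Gpr22 (log2 -0.59, adjusted p = 0.036) and for Gpr19 (log2 -0.75, adjusted p = 0.0016). Gpr25 (log2 -0.30, adjusted p = 0.062) was called lower with the replicate block (adjusted p = 0.038) and when TRAP replicate 2 was left out (0.0097). Gpr162 (log2 -0.12, adjusted p = 0.38) was called lower without unbound replicate 1 (adjusted p = 0.044).

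Several probe sets above the level minimum were present for 15 receptor genes, and in 0 of these were they called in opposite directions. In 13 of the 15 all probe sets had the same sign. They were all called the same way in 6 genes, Adgrg1, Adgrl2, Adgrl3, Gpr83, Gpr85 and Gpr135, and in 8 some were called and some not. The same counts over all genes with several probe sets were not made, so these do not set the receptor genes apart. In a single fit over 20291 probe sets with 1 symbol, 43 of the 71 receptor probe sets above the minimum were lower, 6 higher and 22 not called, where 46.6% of all these probe sets were lower and 21% higher.

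**Figure D3:**
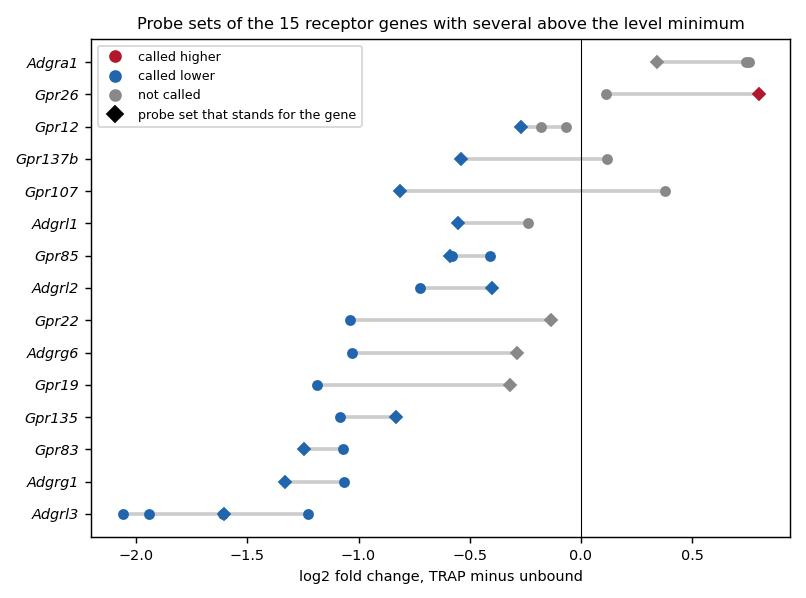
Log2 fold change (TRAP minus unbound, x axis) of each probe set above the level minimum for the 15 receptor genes with several, with diamonds for the probe set that stands for the gene and colour for the call in the probe set fit. The 5 Adgrl3 probe sets lie together on the lower side, from -2.06 to -1.23, and Gpr107 and Gpr137b have probe sets on both sides of 0.

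The ligand, partner and effector genes of these receptors were tested in 68 of 73 listed genes with a symbol of their own on the array, and 38 were lower and 9 higher, or 16 and 18 after centring on all probe sets, beside 45.7% lower and 23.3% higher of all genes, or 22.3% and 47.3% after that centring (median -0.43, beside -0.21 for all genes). Among those at 2-fold and not yet described, Grk3, a kinase that shuts off activated receptors, measured 815, 816 and 816 in TRAP RNA, against 3360.4, 1992 and 2974 in unbound RNA (3.32-fold lower, adjusted p = 0.0011). Penk, the precursor of enkephalins, which striatal neurons and interneurons also make, measured 789.9, 1562 and 1079 in TRAP RNA, against 3829, 3961 and 4311 in unbound RNA (3.66-fold lower, adjusted p = 0.002). Both are clear of overlap. Celsr2, an adhesion receptor of the cadherin type outside the Adgr symbols, measured 333, 654 and 440.4 in TRAP RNA, against 742, 1343 and 1036 in unbound RNA (2.21-fold lower, adjusted p = 0.029), and its call was lost when TRAP 1 or 3 or unbound 2 or 3 was left out (adjusted p between 0.08 and 0.086) or arrays were centred on all probe sets (0.098). Gal, the galanin precursor, was 2.36-fold higher, but not called when values under 50 were raised to 50 (log2 0.066).

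**Figure D4:**
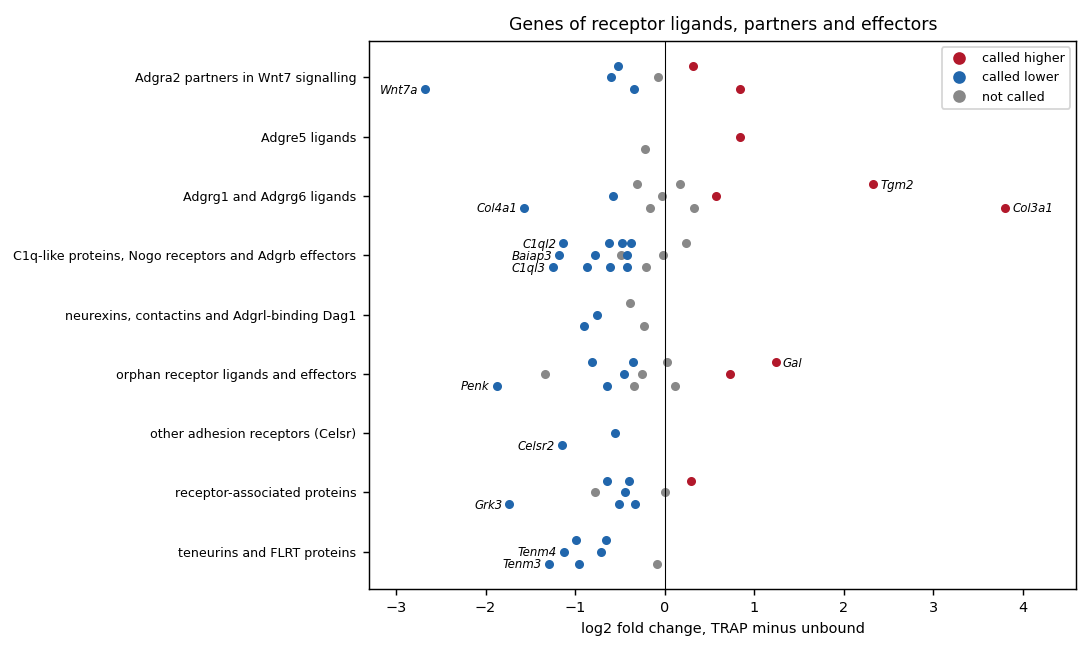
Log2 fold change (TRAP minus unbound, x axis) of 68 genes for ligands, partners and effectors of orphan and adhesion receptors, by list (y axis), with names for those called at least 2-fold. Col3a1 and Tgm2 stand far to the right at 3.80 and 2.33, and the teneurin and FLRT genes all lie left of 0.

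The remaining 33 receptor genes, 8 adhesion and 25 other, were under 50 on average in both groups and were not tested. The highest single value on any array among the 63 receptor probe sets under the minimum was 50.8. The adhesion genes were Adgre1, Adgre4, Adgrf1, Adgrf4, Adgrf5, Adgrg2, Adgrg3 and Adgrl4. The others included Gpr27, the third SREB receptor, the class C receptors Gpr158 and Gpr179, the zinc receptor Gpr39, the melatonin-related receptor Gpr50, and Gpr1, Gpr20, Gpr31b, Gpr33, Gpr63, Gpr143, Gpr151, Gpr152, Gpr160 and Gpr165. At such values a probe set cannot be told from background, so no statement on their presence is made.

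**Figure D5:**
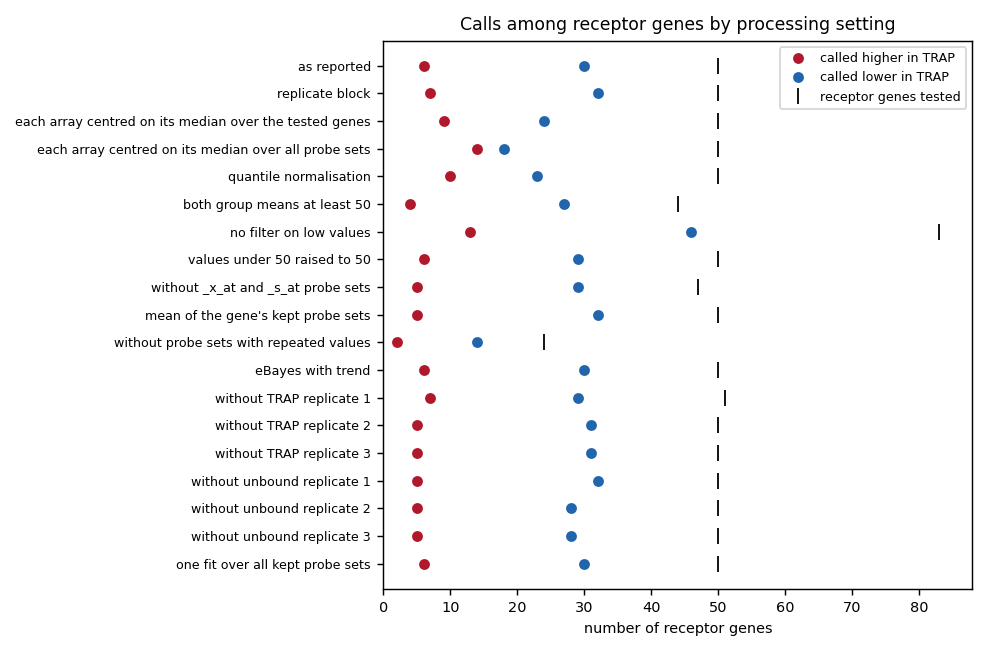
Number of receptor genes called higher or lower in TRAP RNA (x axis) under each processing setting (y axis), with the number tested as a black mark. As reported, 30 were lower and 6 higher of 50, and the closest counts, 18 and 14, came from centring on all probe sets.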

How the data were processed

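Gene expression was measured on 6 Affymetrix arrays, 3 TRAP and 3 unbound. Per the labels' protocols, 15 ng of RNA was amplified in 2 cycles, which favours sequence near the poly(A) tail. The authors deposited linear intensities, made with GCRMA per the submitters' processing notes (no version is named there). No source says if all arrays were summarised together, and repeated values within a group shrink the spread. The table has 0 unused columns.

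Values were analysed as log2 intensity with limma 3.58.1 in R 4.3.3 (lmFit, eBayes, group only, two-sided, Benjamini-Hochberg over 12070 genes, threshold 0.05). Probe sets needed 1 symbol and a group mean of 50 in at least 1 group; each gene was represented by the brightest. The submitters' advice to drop values under 50 can also be read as asking for 50 in both groups, which was run as an alternative. The 64 controls were left out. All 134 receptor probe sets matched a RefSeq gene by Entrez ID. The members and gene lists were chosen with earlier results of these data known. Named genes were every tested adhesion gene, every member called at least 2-fold, tested members of role lists, and partners called at least 2-fold; others, such as Reck, Cd55 and Psap, were added after values were seen.

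Alternatives were a replicate block, 3 scalings (1 added after seeing the data), both means at 50, no filter, values raised to 50, other probe set choices, a variance trend, leaving out each array, and a test against a 2-fold change. Same-numbered samples, paired by the number in their titles, deviated together across genes (correlations 0.50, 0.46 and 0.37; other pairings -0.37 to -0.046).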

Additional observations from a re-analysis of the deposited data

How the results depend on the processing

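Of the 16 genes called at least 2-fold, the 12 with both group means at 50 or more kept their direction and call in every setting run for them, apart from the test against a 2-fold change. Adgra2, Gpr182, Gpr34 and Gpr101 had 1 group near background and could not be run with both means at 50, and Gpr34 had no spread for leaving out an array to test. Of all 36 called receptor genes, 22 kept their calls in the settings that could be run. No such count was made over all called genes. Apart from the test against a 2-fold change, 2-fold calls over all genes were counted only in the fit reported first. They were 13.3% lower and 7.29% higher there. A gene got no value where a setting left it no probe set.

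The replicate block left 5 calls of receptor genes changed, those of Adgra1, Adgra3, Adgrb2 and Gpr25 (gained) and Gpr137b-ps (lost), gave 2 higher adhesion genes, and changed no other call among the receptor genes. Partners were followed by gene only if called at least 2-fold, with Reck, Cd55 and Psap added, and among these the block ended the Reck call only. Centring on the tested genes gave 4 higher and 3 lower adhesion genes and a median of -0.27. Centring on all probe sets gave 14 receptor genes higher and 18 lower, 8 at least 2-fold lower, 5 adhesion genes higher and 2 lower, 9 other Gpr genes higher and 16 lower, and a median of -0.052. Quantile normalisation gave 10 receptor genes higher, 5 of them adhesion genes, and a median of -0.22. Of all genes, these 3 scalings called, in that order, 34%, 47.3% and 34.1% higher and 33.2%, 22.3% and 33% lower. Log2 values whose sign turned were, with centring on the tested genes, Adgrb1 0.14, Adgrd1 0.058, Gpr137 0.20, Gpr137b-ps 0.085, Gpr162 0.087, Gpr22 0.076 and Gpr62 0.044, with centring on all probe sets, Adgrb1 0.36, Adgrb2 0.0038, Adgrd1 0.28, Adgrg6 0.15, Adgrl2 0.035, Gpr108 0.14, Gpr12 0.16, Gpr137 0.42, Gpr137b-ps 0.31, Gpr162 0.31, Gpr19 0.11, Gpr22 0.30, Gpr25 0.13, Gpr3 0.21, Gpr62 0.27 and Psap 0.18, and with quantile normalisation, Adgrb1 0.12, Adgrd1 0.18, Adgrg6 0.084, Gpr137 0.22, Gpr137b-ps 0.091, Gpr162 0.14, Gpr22 0.071, Gpr3 0.078 and Gpr62 0.085. By construction, centring adds the same amount to every gene of an array. The median to centre on was settled as that of the tested genes after both versions had been seen.

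With both means at 50, 1 receptor gene of 44 was at least 2-fold higher and 0 adhesion genes were higher. Without a filter, 83 genes were tested, 13 higher and 46 lower, with 2 adhesion genes higher and 10 lower, 11 other Gpr genes higher, and a median of -0.30. Of all genes in that setting, 26.4% were called higher and 45.9% lower. Without _x_at and _s_at probe sets 0 adhesion genes were higher, as Adgra2 had no other probe set. Without repeated values 24 genes were left, 2 higher and 14 lower, 0 and 6 of them at 2-fold, with 0 adhesion genes higher and 2 and 9 of the other Gpr genes higher and lower. Of all genes left there, 19.7% were called higher and 39.2% lower. The test against a 2-fold change left 7 lower, of which Gpr34 and Gpr101 were near background in TRAP RNA. It left 792 of all 12070 genes lower. Leaving out each array gave 5 to 7 receptor genes higher and 28 to 32 lower, 3 and 13 to 14 at 2-fold, 1 to 2 adhesion genes higher and 4 to 6 lower, 4 to 5 other Gpr genes higher and 24 to 26 lower, and medians from -0.54 to -0.34, the last without TRAP replicate 1. Of all genes, 20.2% to 23.4% were called higher and 40.2% to 43.2% lower when an array was left out. Signs turned for Adgrb1 (-0.15 to 0.073 over these settings), Gpr137 (-0.084 to 0.049), Gpr22 (-0.41 to 0.074). Except where fewer genes were tested, the cause was not tested.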
